A study of Mus musculus with 18 samples.

Results

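The major urinary proteins are small secreted carriers of the lipocalin family, and 5 of their genes were followed here in mouse liver: Mup3, Mup4, Mup5, Mup20 and Mup21. They are 5 of the 11 Mup genes that the array names. The rule that defines them uses no measured value, but members and gene lists were chosen with earlier results of these data known. The array holds 7 probes for them (1 each for Mup3, Mup5 and Mup21 and 2 each for Mup4 and Mup20) among 39429 probes in all, and all 5 genes and 7 probes passed the filter on dim probes that left 19620 named genes. Total liver RNA came from 18 male C57BL/6 mice, 1 array per mouse, that were started at 6 weeks of age on a 10% low fat diet or a 60% high fat diet and stayed on it for 10 weeks before treatment. LFD (n = 4) and HFD (n = 4) mice received no treatment, and the labels name no vehicle for them. LFD-MTX50 (n = 5) and HFD-MTX50 (n = 5) mice were injected intraperitoneally with 5 rounds of methotrexate, an antifolate that blocks nucleotide synthesis, at 50 mg/kg, and livers were taken a week after the last round. Doses were scaled to body weight, so that heavier mice received more drug.

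Major urinary proteins are made mainly by hepatocytes, enter the blood and are filtered into the urine, where they carry and slowly release volatile pheromones. Their genes form a tandem cluster of closely related copies, and liver expression is known to be higher in males, to follow the pulsatile male pattern of growth hormone through the transcription factor STAT5B, and to respond to androgen, thyroid hormone and glucocorticoid. The Mup20 product, darcin, is a male pheromone that draws females. Mup4 and Mup5 are also known from glands of the head. Because the copies are so alike, a probe named for 1 copy may bind the RNA of others, and each value below is that of a probe.

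RefSeq (GRCm38.p6) holds the window just before the annotated start for only 3 of the 5 genes, and these 3 are shown. The mean of each of their probes was lower in LFD-MTX50 than in LFD mice, as it was for all 13 Mup probes. The windows are the 250 bases upstream of the start of Mup3 (chr4:62087318-62087567, minus strand), Mup4 (chr4:59960668-59960917, minus strand) and Mup21 (chr4:62150842-62151091, minus strand), 5′ to 3′ along the gene. Capitals mark matches on either strand to ATCAAT, the core of the ONECUT (HNF6) site, to AGAACA, a steroid receptor half-site that reads TGTTCT on the opposite strand, and to TATAA, part of the TATA box.
Mup3: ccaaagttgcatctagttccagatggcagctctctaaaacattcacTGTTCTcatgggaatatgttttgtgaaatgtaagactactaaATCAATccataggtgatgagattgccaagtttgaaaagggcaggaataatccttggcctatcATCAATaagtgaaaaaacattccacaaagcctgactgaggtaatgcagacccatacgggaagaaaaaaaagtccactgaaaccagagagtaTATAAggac
Mup4: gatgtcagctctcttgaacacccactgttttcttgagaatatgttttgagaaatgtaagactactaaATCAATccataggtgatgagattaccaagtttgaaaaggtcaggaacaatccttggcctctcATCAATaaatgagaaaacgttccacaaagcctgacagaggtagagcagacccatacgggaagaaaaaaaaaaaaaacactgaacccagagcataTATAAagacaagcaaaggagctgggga
Mup21: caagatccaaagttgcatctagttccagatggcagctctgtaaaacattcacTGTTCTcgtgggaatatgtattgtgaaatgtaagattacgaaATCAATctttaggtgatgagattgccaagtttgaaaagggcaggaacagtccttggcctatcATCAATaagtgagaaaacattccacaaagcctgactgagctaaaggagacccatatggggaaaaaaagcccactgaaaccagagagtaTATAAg
Over all columns of a global alignment, Mup3 and Mup21 were 89.5% identical, Mup3 and Mup4 75.6%, and Mup4 and Mup21 70%. The windows are offset, with the first ATCAAT at base -162 in Mup3, -183 in Mup4 and -156 in Mup21. Unpaired bases count as differing, so these shares are lower than the identity of the paired bases alone. Each of the 3 windows held 2 matches to ATCAAT on the same strand, with starts 62 bases apart in every one. At least 1 match stood in 6.72% of the 32851 RefSeq windows of this length, and at least 2 stood in 0.609%. The 3 windows belong to closely related copies, so they are not independent readings to set against these shares. AGAACA was matched once in Mup3 and once in Mup21 (16.1% of all windows) and TATAA once in each of the 3 (22.8% of all windows). Relative to the annotated start, TATAA began at base -9 in Mup3, -27 in Mup4 and -6 in Mup21. Whether each is a working TATA box was not tested. The STAT5 site TTCNNNGAA, present in 7.02% of all windows, had no match in these 250 bases. No motif overlapped another. Mup5 and Mup20 are named only.

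Levels are given as log2 of the background-subtracted spot signal relative to the 75th percentile of the same array, so that a value of 7 is a signal 7 doublings above that percentile. In LFD mice the 7 probes varied little, with SDs of 0.10 to 0.18 (n = 4). Mup3 read 7.93, 7.98, 7.75 and 8.11 in the LFD mice and 7.67, 7.89, 7.58 and 7.77 in the HFD mice. Under methotrexate it read 7.27, 6.97, 7.48, 7.32 and 5.67 in the LFD-MTX50 mice and 6.22, 7.71, 7.56, 7.65 and 7.92 in the HFD-MTX50 mice. All 5 LFD-MTX50 mice lay below all 4 LFD mice, whereas 4 of the 5 HFD-MTX50 mice lay among or near the untreated values.

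Mup21 had the widest span of the members. It read 7.01, 7.34, 6.99 and 7.27 in LFD mice and 7.03, 6.81, 6.18 and 6.79 in HFD mice. In LFD-MTX50 mice it read 4.56, 4.55, 4.43, 5.32 and 2.13, and in HFD-MTX50 mice 3.56, 7.04, 6.96, 7.19 and 7.96. Every LFD-MTX50 mouse was below every untreated mouse of either diet, and HFD-MTX50 mouse 1 was below 4 of the 5 LFD-MTX50 mice while the other HFD-MTX50 mice lay near the LFD range or above it.

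The Mup5 probe read 7.14, 7.25, 7.06 and 7.27 in LFD, 5.74, 5.03, 6.13, 5.72 and 2.70 in LFD-MTX50, 7.19, 7.11, 6.75 and 7.06 in HFD, and 4.20, 7.0, 7.08, 7.19 and 7.73 in HFD-MTX50. Again all 5 treated mice on the low fat diet were below all 8 untreated mice, and on the high fat diet only mouse 1 was.

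Mup20, the darcin gene, read 8.15, 8.05, 7.95 and 8.25 in LFD on its brighter probe and 7.80, 7.11, 7.96, 7.69 and 5.35 in LFD-MTX50. The HFD mice read 7.71, 8.04, 7.87 and 7.99 and the HFD-MTX50 mice 7.38, 7.92, 7.84, 7.89 and 8.11. Here LFD and LFD-MTX50 overlapped, by LFD-MTX50 mouse 3 alone, and the same was true of the brighter Mup4 probe. That probe read 7.83, 7.79, 7.69 and 7.97 in LFD, 7.35, 6.87, 7.70, 7.41 and 5.01 in LFD-MTX50, 7.44, 7.73, 7.62 and 7.75 in HFD and 6.71, 7.73, 7.58, 7.68 and 7.89 in HFD-MTX50.

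The dimmer Mup4 probe moved further than the brighter one. It read 5.67, 5.67, 5.39 and 5.40 in LFD, 3.85, 3.05, 3.93, 3.69 and 1.03 in LFD-MTX50, 5.83, 5.71, 5.24 and 5.55 in HFD and 2.84, 5.89, 5.84, 5.84 and 6.32 in HFD-MTX50. On this probe all LFD-MTX50 mice were below all untreated mice. The dimmer Mup20 probe ranged from 7.72 to 8.02 in LFD, 4.93 to 7.61 in LFD-MTX50, 7.61 to 7.92 in HFD and 6.55 to 8.19 in HFD-MTX50. No Mup spot was saturated: the brightest member spot stood at 61.9% of the scanner's saturation value, and the dimmest Mup21 spot at 0.946%.

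**Figure D1:**
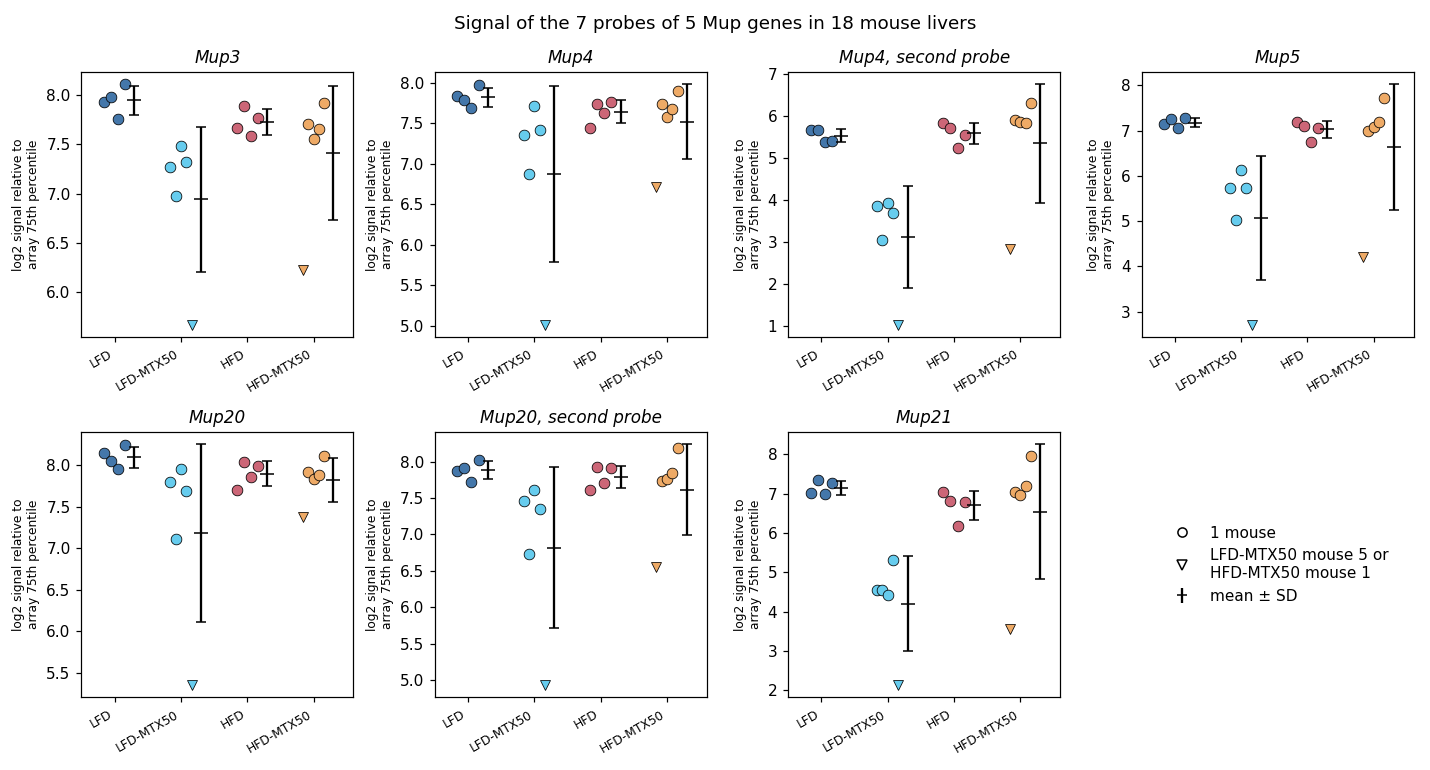
Signal of the 7 member probes in each mouse, as log2 relative to the 75th percentile of the array (vertical axis), by group (horizontal axis). Circles and triangles are single mice, bars are mean ± SD, and the triangles (LFD-MTX50 mouse 5 and HFD-MTX50 mouse 1) are the lowest point of their group on all 7 probes.

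The order of group means was the same for the brightest probe of all 5 genes: LFD, then HFD, HFD-MTX50 and LFD-MTX50. Mup21, for example, averaged 7.15 ± 0.18 (SD, n = 4) in LFD, 6.70 ± 0.36 (SD, n = 4) in HFD, 6.54 ± 1.72 (SD, n = 5) in HFD-MTX50 and 4.20 ± 1.21 (SD, n = 5) in LFD-MTX50. LFD and HFD, and HFD and HFD-MTX50, are neighbors that did not differ beyond their spread for any of the 5. The dimmer Mup4 probe departed from the order, with HFD (5.58 ± 0.26, SD, n = 4) above LFD (5.53 ± 0.16, SD, n = 4).

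The first question was whether methotrexate changed these genes in lean mice (LFD-MTX50 vs LFD). Mup21 fell 7.76-fold (log2 difference -2.96, SE 0.70, adjusted p = 0.0081 by limma with Benjamini-Hochberg adjustment over all probes). Mup5 fell 4.33-fold (-2.11, SE 0.65, adjusted p = 0.025) and Mup3 fell 2.00-fold (-1.0, SE 0.34, adjusted p = 0.037). Mup4 (-0.95, SE 0.39, adjusted p = 0.078) and Mup20 (-0.92, SE 0.37, adjusted p = 0.071) did not pass on their brightest probes, although the dimmer Mup4 probe did (-2.42, SE 0.62, adjusted p = 0.011). The dimmer Mup20 probe did not pass (-1.07, adjusted p = 0.066), and whether probes of 1 gene differ in their change was not tested. Thus 3 of 5 genes were called lower, where 10.5% of all named genes were called lower (17.6% higher and 28.0% in either direction), and the groups did not overlap for the same 3 genes, where 11.5% of all named genes were lower without overlap.

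**Figure D2:**
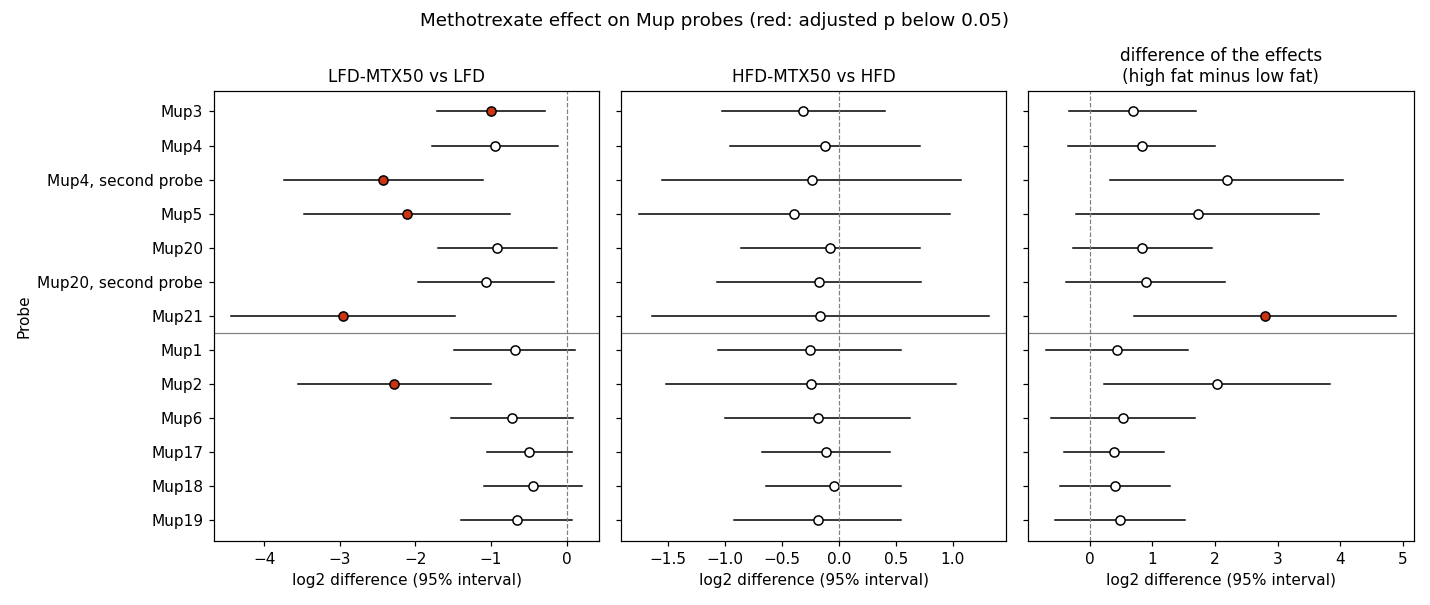
Log2 difference (horizontal axis) of 13 Mup probes for the methotrexate effect on each diet and for the difference between those effects; bars are 95% intervals from limma and red points passed an adjusted p of 0.05. In LFD-MTX50 vs LFD the 5 red probes are Mup3, the dimmer Mup4 probe, Mup5, Mup21 and Mup2, none is red in HFD-MTX50 vs HFD, and only Mup21 is red for the difference.

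These calls were near the threshold for Mup3 and Mup5. Mup3 missed it without LFD-MTX50 mouse 5 (-0.68, adjusted p = 0.066), without LFD-MTX50 mouse 2 (adjusted p = 0.056) and without any of LFD mice 1 to 4 (adjusted p from 0.058 to 0.079), and Mup5 missed it without LFD mouse 2 (adjusted p = 0.058) or LFD mouse 4 (adjusted p = 0.0501), which left 1 of 5 genes called. The fits in which Mup3 or Mup5 missed it called 16.2 to 25.9% of all named genes in either direction, against 28.0% with all mice. Mup21 passed whichever array was left out, with differences from -3.24 to -2.44. The LFD mice were on 1 slide and the LFD-MTX50 mice on 2 other slides, so slide and group cannot be told apart here. With slide as a random block no member passed (Mup21 -3.24, adjusted p = 0.066), where 1.81% of all named genes did. In whole liver, fewer expressing cells and less RNA per cell cannot be told apart either.

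In obese mice (HFD-MTX50 vs HFD) 0 of 5 genes passed by limma, at an adjusted or an unadjusted p of 0.05. By adjusted p, limma called 10.9% of all named genes here in either direction. The methods' t-test, which the paper names for measures such as weight, gave 0 of 5 after adjustment. It also called 0 of all 19620 named genes, so its count says nothing particular to Mup genes. No member separated the groups, where 11.4% of all named genes did. The differences were -0.31 (95% interval -1.03 to 0.40) for Mup3, -0.12 (-0.95 to 0.71) for Mup4, -0.39 (-1.76 to 0.98) for Mup5, -0.07 (-0.86 to 0.71) for Mup20 and -0.16 (-1.64 to 1.32) for Mup21. The intervals of Mup3, Mup5 and Mup21 reach below -1, so the absence of a call is not evidence of equal levels. Mouse 1 set the sign of most: without it, Mup21 was 0.58 higher in HFD-MTX50 (adjusted p = 0.40), Mup5 0.22, Mup4 0.082 and Mup20 0.037 higher, and Mup3 differed by -0.01. These groups shared 1 slide, on which HFD-MTX50 mice 1 and 2 lay -1.19 from HFD mice 3 and 4 for Mup21, -1.31 for Mup5 and -0.71 for Mup3; the other slides gave 0.45, 0.18 and -0.06.

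Diet alone (HFD vs LFD) gave 0 of 5 calls at an adjusted or unadjusted p of 0.05, where 28.3% of all named genes were called in either direction. Differences ran from -0.45 (95% interval -2.01 to 1.11) for Mup21 to -0.15 (-1.59 to 1.29) for Mup5. HFD and LFD overlapped on all 7 member probes, where 40.2% of all named genes did not overlap on their brightest probe.

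Treated mice of the 2 diets (HFD-MTX50 vs LFD-MTX50) differed for Mup21, which was 5.08-fold higher on the high fat diet (log2 difference 2.35, SE 0.66, adjusted p = 0.027). The dimmer Mup4 probe was 4.71-fold higher (2.23, SE 0.58, adjusted p = 0.020), while Mup5 (1.57, SE 0.61, adjusted p = 0.082), Mup3 (0.47), Mup4 (0.65) and Mup20 (0.64) did not pass. That is 1 of 5 genes, where 7.36% of all named genes were called higher and 16.1% in either direction. The groups overlapped for every member, where 6.13% of all named genes did not overlap. HFD-MTX50 mouse 1 lay within the LFD-MTX50 range on all 7 probes, and on the brighter Mup4 and Mup20 probes other HFD-MTX50 mice did too. These groups lay on separate slides, and with slide as a random block 0 of 5 genes passed, where only 0.0917% of all named genes did. Without HFD-MTX50 mouse 1, Mup5 (2.18, adjusted p = 0.0059) and Mup3 (0.77, adjusted p = 0.049) passed as well. That fit called 21.7% of all named genes in either direction, against 16.1% with all mice. Without LFD-MTX50 mouse 3 or HFD-MTX50 mouse 3, 4 or 5 Mup21 did not pass (adjusted p from 0.051 to 0.067). Those fits called 6.94 to 12.9% of all named genes.

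The difference between the methotrexate effects on the 2 diets was tested directly; it draws on the same mice as the comparisons above. For Mup21 it was 2.80 (SE 0.99, adjusted p = 0.045), from an effect of -2.96 on the low fat and -0.16 on the high fat diet, and with slide as a random block it was 2.74 (adjusted p = 0.13). For Mup5 it was 1.72 (adjusted p = 0.16), for Mup4 0.83 (adjusted p = 0.27) on the brighter and 2.18 (adjusted p = 0.071) on the dimmer probe, for Mup20 0.84 (adjusted p = 0.24) and for Mup3 0.69 (adjusted p = 0.29). Thus 1 gene of 5 passed, where 8.63% of all named genes were called in this direction and 26.7% in either, and 15 of the 18 fits that left out 1 array did not call Mup21 (adjusted p up to 0.093, and 0.063 without LFD-MTX50 mouse 5). Without HFD-MTX50 mouse 1 the difference was 3.54 for Mup21 (adjusted p = 0.0032) and 2.33 for Mup5 (adjusted p = 0.021). That fit called 31.6% of all named genes in either direction, against 26.7% with all mice.

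A pair of mice stood apart. LFD-MTX50 mouse 5 was the lowest of its group on 13 of 13 Mup probes, and HFD-MTX50 mouse 1 on 13 of 13 as well. For Mup21 the first lay 6.01-fold and the second 13.3-fold below the mean of the other mice of its group, and for Mup5 they lay 7.72-fold and 8.26-fold below. For the brighter Mup20 probe the same mice were only 4.89-fold and 1.47-fold below. LFD-MTX50 mouse 5 was alone on its slide, whereas HFD-MTX50 mouse 1 shared its slide with HFD-MTX50 mouse 2 and HFD mice 3 and 4, in which Mup21 read 7.04, 6.18 and 6.79. HFD-MTX50 mouse 5, on another slide, was the highest of its group on 13 of 13 probes. The arrays of HFD-MTX50 mice 1 and 5 had the highest and the lowest 75th percentile of all 18 (2263 and 1203), by which each signal is scaled. In the signal as deposited, without scaling, mouse 1 was still the lowest of its group on 12 of 13 Mup probes, but mouse 5 was the highest only on Mup21 (1 of 13). LFD-MTX50 mouse 5 was the lowest of its group on 13 of 13 without scaling.

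**Figure D3:**
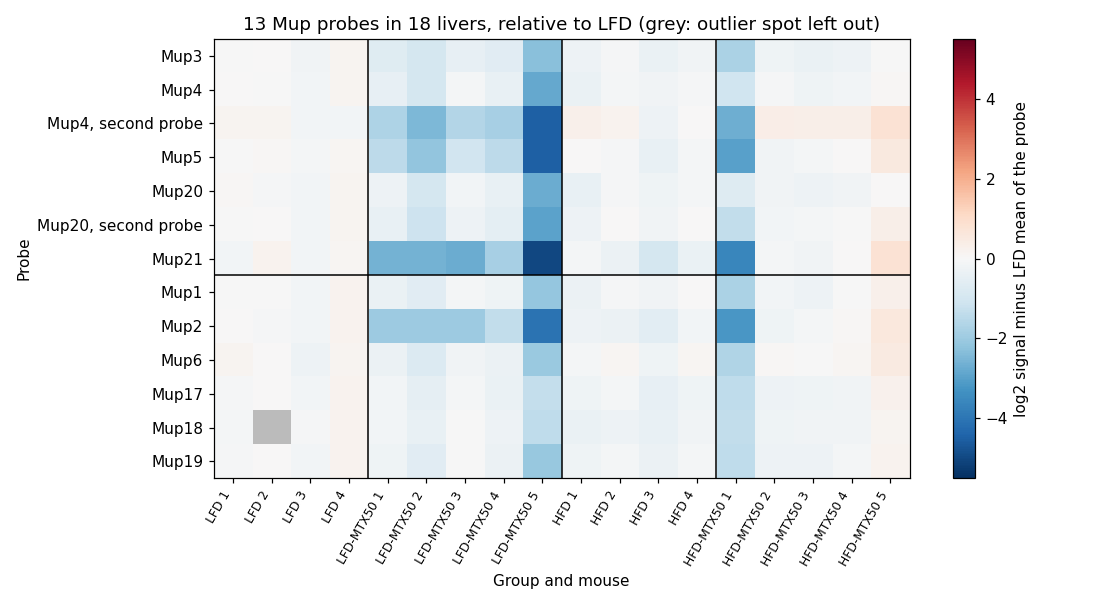
Each of 13 Mup probes (rows; members above the line) in each of 18 mice (columns, by group), as log2 signal minus the mean of the probe in LFD mice; blue is lower, red higher and grey an outlier spot left out. Columns LFD-MTX50 5 and HFD-MTX50 1 are the bluest, and Mup21, Mup5, Mup2 and the dimmer Mup4 probe are the bluest rows of the LFD-MTX50 block.

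The other 6 Mup genes on the array, with 1 probe each, gave a similar picture with mostly smaller changes. Mup2 read 7.86, 7.76, 7.68 and 8.05 in LFD, 5.84, 5.83, 5.86, 6.50 and 3.76 in LFD-MTX50, 7.56, 7.53, 7.27 and 7.68 in HFD and 4.66, 7.61, 7.73, 7.91 and 8.40 in HFD-MTX50. It fell 4.85-fold in LFD-MTX50 vs LFD (-2.28, SE 0.60, adjusted p = 0.013) and was 3.25-fold higher in HFD-MTX50 than in LFD-MTX50 (1.70, SE 0.57, adjusted p = 0.049). Mup1, Mup6, Mup17, Mup18 and Mup19 differed by -0.69, -0.72, -0.49, -0.45 and -0.66 between LFD-MTX50 and LFD, none of which passed. One Mup18 spot of an LFD mouse was an outlier and was dropped from the fit. All 13 probes had negative differences in LFD-MTX50 vs LFD, but probes of such alike genes are not independent readings.

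Members also tracked each other over the 18 mice, as a description. Pearson's r between brightest probes ran from 0.79 for Mup20 with Mup21 to 0.99 for Mup4 with Mup20. Leaving out the 2 mice farthest from the median gave 0.68 for the first pair and 0.97 for the second. Mup4 and Mup20 thus paired most closely, and Mup5 with Mup3 (0.97) and with Mup21 (0.97).

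The genes most like each member were then named, by Pearson's r over 18 mice on brightest probes, leaving members out. Mup21 was closest to Mup2 (r = 0.993, Spearman's rho 0.92), followed by Ipo13, Atp6v1e1, Med1 and Eif2d (r from 0.956 to 0.968). Mup5 was closest to Atp6v1e1 (0.983), Pax2, Med1, Mup2 and Ipo13. Mup3 was closest to Mup1 (0.971), Tmem14a, Mup19, Mup6 and Pax2, and Mup4 to Tmem14a (0.972), Mup19, Klhl32, Mup1 and Bzw1. Mup20 was closest to Klhl32 (0.961), Tmem14a, Bzw1, Mup19 and Cd248. These correlations share the same arrays. Without the 2 mice farthest from the median, r fell most for Mup20 with Klhl32 (to 0.74), and it stayed at 0.99 for Mup21 with Mup2 and was 0.99 for Mup5 with Pax2.

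For 6 of these outside genes the array carries other kept probes, whose values are given beside the brightest; the difference between probes was not tested. Pax2 encodes a developmental transcription factor of kidney, and its brightest probe averaged 6.87 in LFD and 4.47 in LFD-MTX50 (-2.40, adjusted p = 0.044), whereas its other probe differed by 0.75 (adjusted p = 0.079) and correlated with Mup21 at -0.53. Med1, a Mediator subunit, differed by -1.63 on the brightest probe (adjusted p = 0.026) but by 0.66 (adjusted p = 0.011), 0.23 and 0.00059 on its 3 other probes. Eif2d, a translation factor, differed by -3.36 (adjusted p = 0.011) against -0.23 (adjusted p = 0.17), Bzw1 by -2.07 (adjusted p = 0.0053) against 0.13 and -0.08, and Klhl32 by -1.64 (adjusted p = 0.021) against 0.31. Tmem14a differed by -1.11 (adjusted p = 0.073) against -0.25 (adjusted p = 0.22), so neither of its probes passed. The RNA that these Mup-like probes measured was not tested, since the files hold no probe sequences.

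**Figure D4:**
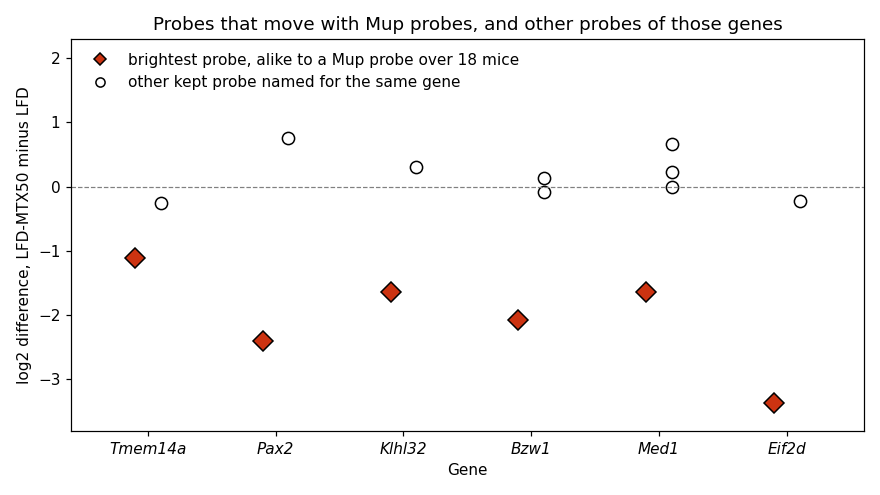
Log2 difference between LFD-MTX50 and LFD (vertical axis) for 6 genes whose brightest probe was among the 5 most like a Mup member (red diamonds) and for the other kept probes named for the same gene (white circles). Diamonds lie between -3.36 and -1.11 and circles between -0.25 and 0.75.

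Other liver genes known to differ between the sexes were followed as lists. For these lists and those below, slide and group cannot be told apart in LFD-MTX50 vs LFD. With slide as a random block 1.81% of all named genes were called there, against 28.0% without it. Among male-biased genes, 16 of 21 fell in LFD-MTX50 vs LFD and 0 rose (median log2 difference -1.35), beside 10.5% called lower and a median of 0.11 over all named genes. Elovl3, a fatty acid elongase, fell most (-6.50, SE 0.61, adjusted p = 4.2e-05), followed by Nat8f5 (-5.80) and Hsd3b5 (-4.64), a steroid dehydrogenase. Cyp4a12a (-4.13) and Cyp4a12b (-3.66), which are near-identical cytochrome P450 genes, fell as well. In HFD-MTX50 vs HFD, 4 of 21 fell and 1 rose, beside 6.12% lower and 4.81% higher over all named genes. The difference between the effects was called higher for 8 of 21 and lower for none, beside 8.63% and 18.1%. Untreated mice already differed: in HFD vs LFD 5 of 21 fell and 0 rose (median -0.57). Of 19620 named genes, 2033 fell and 3523 rose in that comparison. The male-biased mean was 2.15 to 2.78 in HFD and 3.15 to 3.41 in LFD mice. The part of this baseline in the difference between the effects was not tested.

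Among female-biased genes, 11 of 25 rose in LFD-MTX50 vs LFD and 0 fell (median 0.73), beside 17.6% higher and 10.5% lower over all named genes. Sult3a1, a sulfotransferase, was well above background in no LFD mouse and in 4 of 5 LFD-MTX50 mice. It read at least 15.1-fold higher (adjusted p = 0.011), a size that rests on LFD values near background. Fmo2, a flavin monooxygenase, rose by 3.28 (adjusted p = 0.0020) and Slc22a26, an organic anion transporter, by 2.69 (adjusted p = 0.0018). With diet alone (HFD vs LFD) 6 of 25 rose and 0 fell (median 0.37), beside 3523 higher and 2033 lower of 19620 named genes. In HFD-MTX50 vs HFD 0 rose and 1 fell, beside 4.81% higher and 6.12% lower over all named genes, so this count is near those shares. The difference between the effects was called lower for 8 of 25 and higher for none, beside 18.1% and 8.63% over all named genes. These counts stayed close without LFD-MTX50 mouse 5 (15 of 21 lower and 10 of 25 higher on the low fat diet). That fit called 25.9% of all named genes in either direction in LFD-MTX50 vs LFD. Without HFD-MTX50 mouse 1 the male-biased count for the difference between the effects was 12 of 21. The share of all named genes called in either direction also rose there, from 26.7% to 31.6%.

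The means of these lists and of the 5 Mup genes are described by mouse. The mean of the 5 Mup genes was 4.17 in LFD-MTX50 mouse 5 and 5.61 in HFD-MTX50 mouse 1, against 6.11 to 6.74 in the other LFD-MTX50 mice and 7.40 to 7.92 in the other HFD-MTX50 mice. The male-biased mean was likewise lowest in LFD-MTX50 mouse 5 (0.43) and, among HFD-MTX50 mice, in mouse 1 (1.04), and the female-biased mean was highest in the same mice (-0.20 and -0.82). Over 18 mice the Mup mean correlated with the male-biased mean at r = 0.86 (rho 0.86, and 0.83 without the 2 mice farthest from the median of that list) and with the female-biased mean at -0.82 (rho -0.83, and -0.72).

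**Figure D5:**
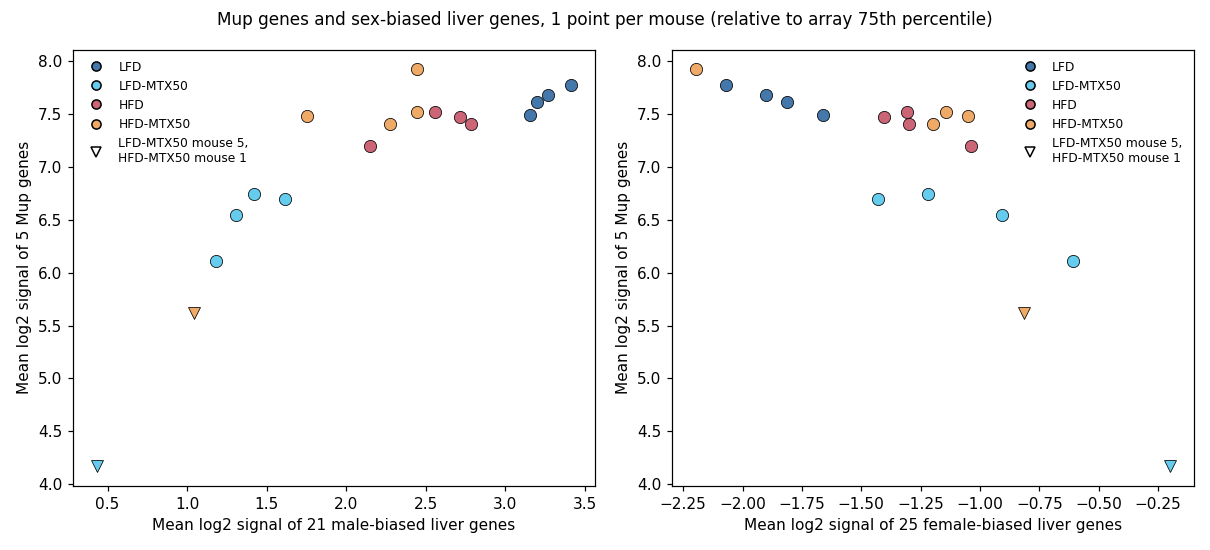
Mean log2 signal of the 5 Mup genes (vertical axes) against that of 21 male-biased and 25 female-biased liver genes (horizontal axes), 1 point per mouse, colored by group. LFD-MTX50 mouse 5 (0.43, 4.17) and HFD-MTX50 mouse 1 (1.04, 5.61) lie at the low end of the left panel.

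Of 20 growth hormone signaling genes, 8 rose and 2 fell in LFD-MTX50 vs LFD, beside 17.6% and 10.5% over all named genes. Cux2, a female-biased repressor that growth hormone controls, read -6.66, -8.20, -6.57 and -7.86 in LFD, where 1 of 4 mice was well above background, and -0.55, -1.41, -1.52, -1.89 and -0.48 in LFD-MTX50 (6.15, SE 0.54, adjusted p = 3.3e-05). In HFD-MTX50 it read -4.45, -3.57, -4.67, -6.37 and -6.56, against -6.58, -6.78, -5.92 and -6.94 in HFD (1.43, adjusted p = 0.089), and the effects differed (-4.72, SE 0.77, adjusted p = 0.0048). The feedback inhibitors Socs2 (2.68, adjusted p = 0.00014) and Cish (2.33, adjusted p = 0.036) and the binding protein Igfbp1 (2.77, adjusted p = 0.021) also rose in LFD-MTX50 vs LFD. In HFD-MTX50 vs HFD 4 of 20 rose, among them Socs2 (0.94, adjusted p = 0.0465) and Igfbp2 (1.69, adjusted p = 0.023), and none fell, beside 4.81% higher and 6.12% lower over all named genes.

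Of 18 hormone receptors and factors upstream of Mup genes, 2 rose and 3 fell in LFD-MTX50 vs LFD, a share called close to the 28.0% of all named genes. Srd5a1, which makes dihydrotestosterone, fell most (-2.49, SE 0.31, adjusted p = 0.00032), with 3.41, 3.74, 3.58 and 3.93 in LFD and 0.71, 1.5, 0.63, 1.76 and 1.25 in LFD-MTX50. Foxa1 (-0.93, adjusted p = 0.015), a pioneer factor, and Zhx2 (-0.69, adjusted p = 0.024), a known regulator of Mup genes, fell, and Cebpb rose (1.04, adjusted p = 0.021). Zhx2 was dim, with 3 of 5 LFD-MTX50 mice well above background. In HFD-MTX50 vs HFD 1 of 18 rose and 0 fell, near the 4.81% higher and 6.12% lower over all named genes.

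Cell type markers give the setting of these values. The mean of 16 hepatocyte markers was 6.31 to 6.51 in LFD and 6.41 to 6.58 in LFD-MTX50. It was 6.01 to 6.19 in HFD and 5.84 to 6.37 in HFD-MTX50, lowest in HFD-MTX50 mouse 1. In LFD-MTX50 vs LFD 1 of 16 rose and 1 fell, beside 17.6% and 10.5% over all named genes. Of the 16, 5 were lower and 0 higher in HFD-MTX50 than in LFD-MTX50 (median log2 difference -0.25), beside 1714 lower and 1444 higher of 19620 named genes. The summed linear signal of neutrophil markers (9 of 10 tested) was 69.1 to 82.7 in LFD, 51.3 to 58.6 in LFD-MTX50, 48.3 to 68.4 in HFD and 45.6 to 127 in HFD-MTX50, while their mean log2 signal was higher in LFD-MTX50 (-2.63 to -0.79) than in LFD (-2.99 to -2.80), and -2.99 to -2.14 in HFD and -2.65 to 1.62 in HFD-MTX50. By limma 2 of the 9 rose and 1 fell in LFD-MTX50 vs LFD. The summed linear signal of erythroid markers (6 of 8 tested) was 15.9 to 22.8 in LFD and 1.16 to 1.70 in LFD-MTX50. It was 10.5 to 22.6 in HFD and 1.46 to 54.8 in HFD-MTX50. Their mean log2 signal was -2.50 to -1.79 in LFD and -3.70 to -2.93 in LFD-MTX50, and correlated with the Mup mean at r = 0.77 over 18 mice. By limma, however, 2 of the 6 rose and 2 fell in LFD-MTX50 vs LFD (median log2 difference 0.22). Ngp and Mmp8 were not well above background in any LFD mouse and Epb42 in any LFD-MTX50 mouse. Their part in the Mup values was not tested. Arrays had 75th percentiles of 1203 to 2263 in signal units, 83.9 to 90.6% of probes well above background, and mean correlations with their own group of 0.979 to 0.993.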

How the data were processed

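Liver RNA of 18 mice was hybridized to 1-color Agilent arrays (Cy3). Per the file headers and labels, the authors extracted spot intensities with Agilent Feature Extraction 10.7.3.1, which subtracts background and removes trends within an array; the deposited processed intensity is not normalized between arrays. A deposited table of background-subtracted intensity values served as an alternative. The other deposited columns used hold flags, probe names and accessions.

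Control and outlier spots (124 to 294 per array) were left out, log2 of the processed intensity was reduced by the 75th percentile of the array, and spots of a probe were averaged. Probes well above background on at least 4 arrays were kept (35765 of 39429). RefSeq accessions named 28025 probes (71.1%). Members were read on their probe with the highest mean signal, with other probes beside it. limma 3.58.1 (R 4.3.3) fitted 1 model of 4 groups; p-values were adjusted by Benjamini-Hochberg over all kept probes and called at 0.05. The fit was tested on simulated data. Alternatives were other background correction (normexp on the median signals, with an offset of 50), scaling, filters, variance models, blocks, tests and each array left out. List counts without single mice, and the order of mice without scaling, were chosen after seeing the data.

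Members and gene lists were chosen with earlier results of these data known. Named genes are the members, every other Mup gene, up to 5 genes of each list (past the threshold, largest difference) and the 5 most correlated with each member. Matched replicate numbers did not pair mice. Each sample is a separate mouse. For a gene not well above background in a whole group, "at least N-fold" sets the mean of the bright group against the mean, over arrays of the dim group, of the higher of its own signal and the lowest signal among probes well above background. That lowest signal is taken over all such probes, so it limits the fold little. Sult3a1 gave 15.1-fold in LFD-MTX50 vs LFD, against 15.3-fold as measured. The number of arrays limits precision.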

Additional observations from a re-analysis of the deposited data

Results flagged for a closer look

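Values of single mice that lay far from the rest of their group (a gap to the nearest mouse of more than 0.71 of the range of 5 mice, by Dixon's test) were found for 16 of 51 probe and group sets, where chance gives about 5%. All 16 belong to 2 mice, so they are not independent. LFD-MTX50 mouse 5 was the low mouse for Mup3 (5.67), Mup21 (2.13), Mup1 (6.13), Mup2 (3.76), Mup18 (6.43) and Mup19 (6.24). HFD-MTX50 mouse 1 was the low mouse for Mup3 (6.22), Mup4 (6.71 on the brighter and 2.84 on the dimmer probe), Mup5 (4.20), the dimmer Mup20 probe (6.55), Mup21 (3.56), Mup1 (6.51), Mup2 (4.66), Mup6 (5.68) and Mup18 (6.49), all as log2 relative to the 75th percentile of the array.

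The methotrexate effect on Mup21 differed between the diets by 2.80 on the log2 scale (limma, adjusted p = 0.045); no other Mup probe passed this test.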

How the results depend on the processing

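In HFD vs LFD and HFD-MTX50 vs HFD, 0 of 5 members were called under every alternative run. In LFD-MTX50 vs LFD the count of 3 became 1 with normexp background correction, 1 with the methods' t-test, 0 with slide as a random block, and ranged from 1 to 4 when 1 array was left out; the replicate block aside, the other alternatives gave 3 or 4. In HFD-MTX50 vs LFD-MTX50 the count of 1 became 0 with normexp, with the fit of only these groups, with the methods' t-test and with slide as a random block, 2 with the mean of a gene's probes, and ranged from 0 to 3 with 1 array left out. For the difference between the effects, the count of 1 became 0 with normexp, quantile normalization, no filter on dim probes and slide as a random block, and ranged from 0 to 2 with 1 array left out.

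Mice share only a number across groups (25 same-numbered pairs, correlation of deviations -0.31 to 0.25, 7 of them above 0.1; 5 of 18 arrays correlated best with their own number). The replicate block gave 1 of 5 in LFD-MTX50 vs LFD and 0 of 5 for the difference between the effects, and left the count of HFD-MTX50 vs LFD-MTX50 at 1.

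Signs turned only among differences that did not pass. Mup5 in HFD vs LFD became 0.088 with quantile normalization and 0.054 with slide as a random block. In HFD-MTX50 vs HFD, Mup4 became 0.066 and Mup20 0.12 with the replicate block; with 1 array left out, Mup4 ranged from -0.21 to 0.082, Mup5 from -0.66 to 0.22, Mup20 from -0.15 to 0.037 and Mup21 from -0.52 to 0.58, each positive without HFD-MTX50 mouse 1. The cause was not tested.

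Normexp, run on median signals because the files hold no mean signals, moved the median of all genes in LFD-MTX50 vs LFD from 0.11 to 0.47. Over all genes, calls for diet in untreated mice, methotrexate in obese mice, methotrexate in lean mice, diet in treated mice and the difference between the effects numbered 5556, 2144, 5503, 3158 and 5240, against 2, 0, 314, 1 and 0 with normexp and 383, 1857, 356, 18 and 1251 with slide as a random block. HFD-MTX50 vs HFD and HFD-MTX50 vs LFD-MTX50 gave 0 and 9 in fits of only the groups compared and 0 and 113 with the methods' t-test; HFD-MTX50 vs HFD gave 0 with slide as a fixed block and 1011 with the replicate block, and the difference between the effects gave 3276 with quantile normalization. Close paralogs, and bright spots at up to 61.9% of saturation for members, limit what a probe can tell about 1 gene.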

Other observations

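Of 20 other lipocalin genes tested, 1 rose and 1 fell in LFD-MTX50 vs LFD (median log2 difference 0.29), fewer than the 28.0% called over all named genes. Obp1a, an odorant-binding protein gene, fell (-0.68, SE 0.23, adjusted p = 0.036) and Lcn4, well above background in 1 of 4 LFD mice, read higher (1.02, SE 0.30, adjusted p = 0.021), a size that rests on values near background. Obp2a, not well above background in LFD or LFD-MTX50 mice, read at least 3.34-fold higher in HFD than LFD (adjusted p = 0.018). It read at least 3.71-fold higher in HFD-MTX50 than LFD-MTX50 (adjusted p = 0.012), and both sizes rest on values near background. Apom, the apolipoprotein M gene, fell in HFD vs LFD (-0.78, SE 0.18, adjusted p = 0.0075) and rose in HFD-MTX50 vs HFD (0.69, SE 0.17, adjusted p = 0.021). Lcn8 fell in HFD-MTX50 vs HFD (-0.69, SE 0.20, adjusted p = 0.038).

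Of 22 acute phase genes, 11 rose in LFD-MTX50 vs LFD and 12 in HFD-MTX50 vs HFD by limma, beside 17.6% and 4.81% called higher over all named genes, and none fell in either; the others did not pass. Lbp, the lipopolysaccharide-binding protein gene, rose by 1.78 (SE 0.28, adjusted p = 0.0012) on the low fat and by 1.40 (SE 0.28, adjusted p = 0.0096) on the high fat diet. Apcs, which encodes serum amyloid P, rose by 1.93 (SE 0.40, adjusted p = 0.0045) and 1.46 (SE 0.40, adjusted p = 0.032). Serpina3n rose by 1.74 (SE 0.40, adjusted p = 0.0068) on the low fat diet.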
